A study of Mus musculus with 6 samples.

Results

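The vascular smooth muscle and pericyte genes are 10 genes that mark the mural cells of blood vessels, chosen by name and followed here in the mouse heart under sleep fragmentation. Of the 20659 named genes with a probe on the array, these 10 were each carried by 1 probe, which was found through its RefSeq accession. Acta2, Tagln, Myh11, Cnn1 and Lmod1 are contractile smooth muscle genes. Rgs5, Kcnj8, Abcc9, Cspg4 and Pdgfrb are pericyte genes. A gene counted as measured where all 3 arrays of either group showed its probe well above background, which held for 9 of the 10 genes (14555 of all named genes). Lmod1 failed this test.

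The study hybridised total RNA of isolated ventricles to 1-colour arrays. The sleep fragmented group held 3 samples of ventricle RNA from mice whose sleep was fragmented for 5 weeks. The control group held 3 samples from mice that were not disturbed. All mice were female, of the C57BL/6N strain and 21 weeks old, and no transgene or other treatment is named for either group. In the sample labels, replicate numbers 1 to 3 in each group only name the samples, and no source says whether each sample is its own animal. The p-values therefore reflect only how these samples scattered, which could be technical.

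Mural cells wrap the endothelial tube. Smooth muscle cells sit on arteries and arterioles and set vessel calibre with actin and myosin filaments, and pericytes sit on capillaries and are held there by platelet-derived growth factor signalling from the endothelium. Many contractile genes of smooth muscle are driven by serum response factor and its partner myocardin through a short A and T rich element, the CArG box. In ventricular muscle the mural cells are a small share of the tissue, and in bulk RNA fewer cells of a type and less RNA per cell cannot be told apart.

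Promoter windows are shown for 2 contractile members, because Acta2 and Cnn1 took different courses over the arrays and these windows differ in CArG-type matches. Each runs from 250 bases before the gene start to 50 bases after it, 5′ to 3′ on the gene's strand, from RefSeq on GRCm38.p6. Acta2 lies on the minus strand at chr19:34255324-34255623 and Cnn1 on the plus strand at chr9:22099003-22099302. Capitals mark matches on either strand to the CArG box with 1 core base that is neither A nor T.
Acta2 promoter: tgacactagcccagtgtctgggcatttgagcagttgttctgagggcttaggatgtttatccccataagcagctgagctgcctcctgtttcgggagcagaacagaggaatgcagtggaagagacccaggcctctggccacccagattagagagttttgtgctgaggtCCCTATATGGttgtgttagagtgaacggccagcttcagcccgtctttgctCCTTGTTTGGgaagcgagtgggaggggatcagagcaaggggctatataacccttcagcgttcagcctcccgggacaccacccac
Cnn1 promoter: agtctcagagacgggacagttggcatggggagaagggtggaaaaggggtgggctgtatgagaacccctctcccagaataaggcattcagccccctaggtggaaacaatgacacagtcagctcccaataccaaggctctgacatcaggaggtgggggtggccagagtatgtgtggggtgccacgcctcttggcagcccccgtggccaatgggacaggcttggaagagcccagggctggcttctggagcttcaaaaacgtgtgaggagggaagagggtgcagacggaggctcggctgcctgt
The Acta2 window held 2 such matches, CCCTATATGG beginning 84 bases before the start and CCTTGTTTGG beginning 34 bases before it, and no exact CArG box. The Cnn1 window held neither form. The exact box was found in 425 of 27018 promoters of the same length (1.57%), and the form with 1 changed core base in 2315 of them (8.57%). Windows were also found for Lmod1, Rgs5, Kcnj8, Abcc9 and Cspg4, and these held neither form. No window was available for Tagln, Myh11 and Pdgfrb, so nothing is said of their promoters. A match of letters is a description only, and a link to the courses over the arrays was not tested.

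Values below are relative signals, the processed signal of a probe as a percent of the 75th percentile that the array's non-control probes reached. They compare arrays for 1 probe and not 1 gene with another. That percentile was lowest on sleep fragmented array 1, at 122.7 intensity units, against 203.9 to 251.7 on the other 5 arrays. The share of probes called well above background ran between 59.2 and 72.6% over the arrays. The markers of the tissue were present, with 14 of 14 ventricular cardiomyocyte genes and 16 of 16 endothelial genes measured. The headers of all sleep fragmented arrays carried 1 scan time and those of all control arrays another, so scan and group cannot be told apart. Each barcode in the headers was shared by 1 sleep fragmented and 1 control array, and the barcodes, ranked, coincided with the replicate number. What the barcode stands for is not stated. Its rank is called the position below, and differences within a position are given for Acta2, Tagln, Cnn1 and Kcnj8.

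Across the whole gene group no difference between sleep fragmented and control hearts passed the test. Of the 9 measured members, 0 passed an adjusted p of 0.05 (limma, Benjamini-Hochberg over 25228 kept probes), as did 0% of all kept probes, and the smallest adjusted p among the members was 0.939. At an unadjusted limma p under 0.05 the count was 0 of 9, against 2.91% of all kept probes. With at least a 1.5-fold difference as well it was again 0 of 9, against 1.92% of all kept probes. The 3 sleep fragmented and 3 control arrays overlapped for each of the 9 members, whereas 7.28% of all kept probes had groups that did not overlap. The log2 fold change, sleep fragmented over control, was below 0 for 4 of the 9 members (37.3% of all kept probes). Its median was 0.0049 over the 9 members, -0.12 over the 4 measured contractile genes and 0.0049 over the 5 pericyte genes, beside 0.08 over all kept probes. Leaving out 1 array moved the contractile median between -0.53 (without sleep fragmented array 2) and 0.14 (without control array 3). It moved the pericyte median between -0.13 (without sleep fragmented array 3) and 0.22 (without sleep fragmented array 2), so neither median had a settled sign. By spread between arrays of a group, 3 of the 4 contractile genes and 0 of the 5 pericyte genes lay above percentile 90 of all genes.

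**Figure D1:**
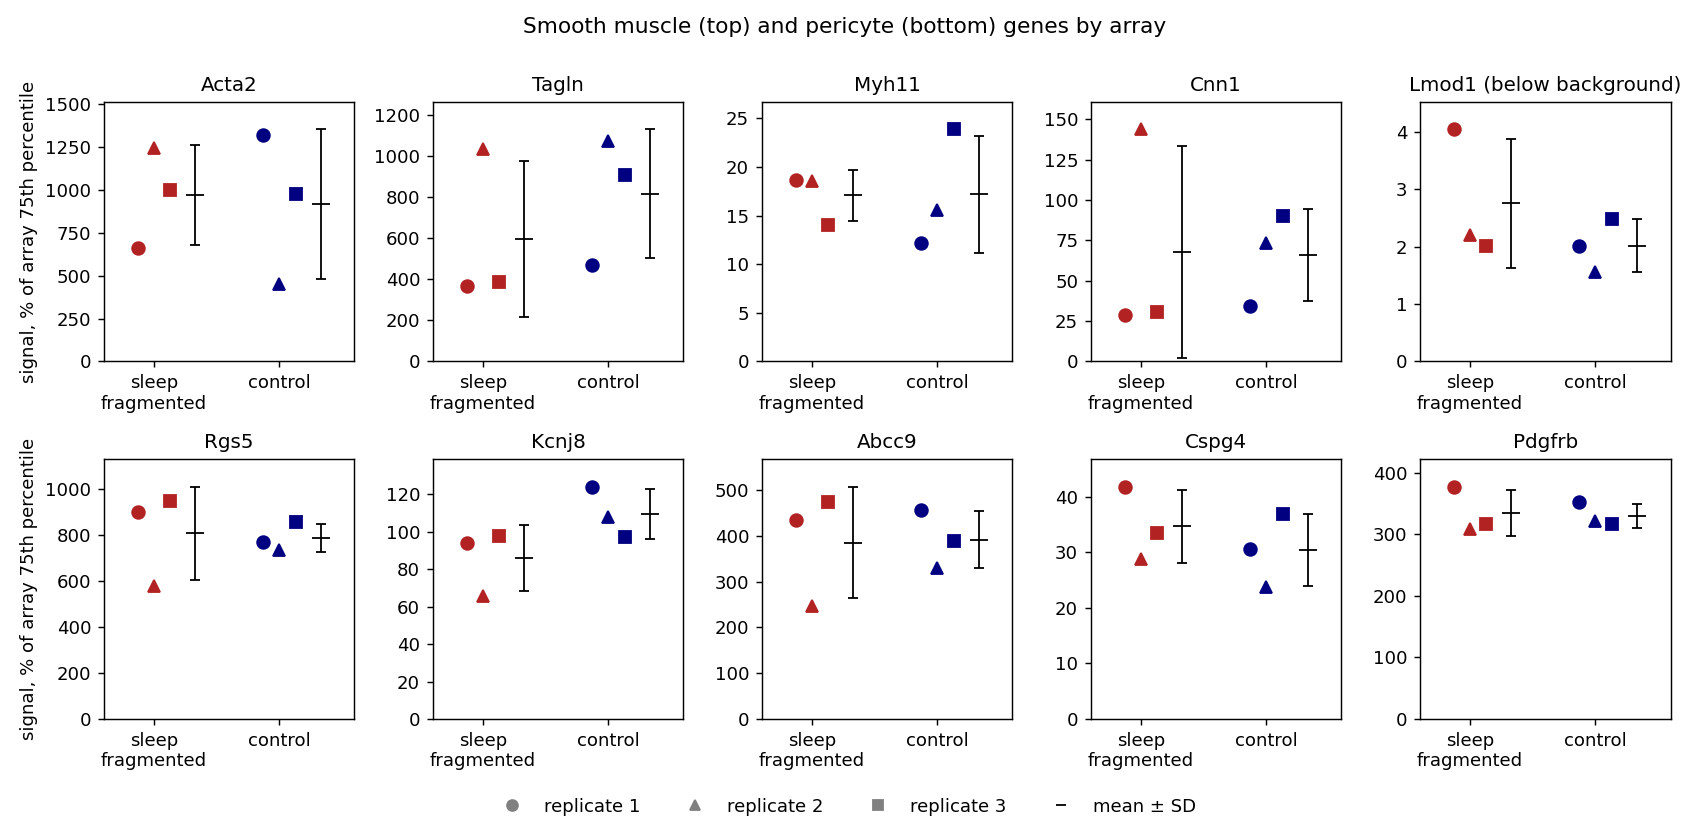
Relative signal (percent of the array's 75th percentile, linear axes from 0) of each member on every array, sleep fragmented left and control right. Points are arrays, lines are means and bars are SD (n = 3 arrays per group), and the groups overlap in each panel of a measured gene.

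Acta2 (NM_007392) encodes smooth muscle alpha-actin, the thin filament protein that generates tension with smooth muscle myosin. Its relative signal was 665, 1243 and 1003% on sleep fragmented arrays 1, 2 and 3. On control arrays 1, 2 and 3 it was 1323, 455 and 975%. The highest and the lowest of the 6 arrays were both controls, and the sleep fragmented arrays fell between them. Means were 970 ± 291% in sleep fragmented hearts and 917 ± 437% in control hearts (SD, n = 3 each). These gave a log2 fold change of 0.17 ± 0.39 (moderated standard error, limma), with an adjusted p of 0.957. Its 95% interval ran from 0.610 to 2.06 in fold. Within a position, sleep fragmented minus control was -0.99 at position 1, 1.45 at position 2 and 0.04 at position 3 on the log2 scale. This probe was printed in 10 spots per array, and the spots of 1 array differed by a coefficient of variation of 4.91 to 6.75%. The spread between spots was thus small beside the 2.91-fold range between arrays.

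Tagln encodes transgelin (SM22), an actin-binding protein and an early marker of smooth muscle. Its relative signal was 366, 1031 and 387% on sleep fragmented arrays 1, 2 and 3. Control arrays 1, 2 and 3 gave 468, 1073 and 907%. Sleep fragmented array 2 lay with the high controls, and the other sleep fragmented arrays were the lowest of the 6. Means were 595 ± 378% in sleep fragmented hearts and 816 ± 312% in control hearts (SD, n = 3 each). The log2 fold change of -0.55 ± 0.44 was the most negative among the members and did not pass (limma adjusted p = 0.939). Its 95% interval reached from 0.345 to 1.36 in fold. Within positions 1, 2 and 3 the log2 differences, sleep fragmented minus control, were -0.36, -0.06 and -1.23, below 0 in each. With this barcode position as a block the log2 fold change was -0.55 ± 0.24 (limma adjusted p = 0.603). Tagln was then the 1 member of 9 at an unadjusted p under 0.05, as were 8% of all kept probes.

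Cnn1 encodes calponin, which binds actin and restrains myosin ATPase in differentiated smooth muscle. Its relative signal was 29.0, 144 and 30.3% on sleep fragmented arrays 1, 2 and 3. In control hearts 1, 2 and 3 it was 34.5, 73.6 and 90.1%. Sleep fragmented array 2 was the highest of the 6 and the other arrays of its group were the lowest. Means were 67.7 ± 65.9% in sleep fragmented hearts and 66.0 ± 28.6% in control hearts (SD, n = 3 each), while the mean of log2 values was lower in sleep fragmented hearts. The log2 fold change was -0.28 ± 0.60 (limma adjusted p = 0.954), and the 95% interval of 0.320 to 2.11 in fold was the widest of the 9 members. Within positions 1, 2 and 3 the log2 differences were -0.25, 0.97 and -1.57.

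Without sleep fragmented array 2, the values of Tagln and Cnn1 moved the most. For Tagln the log2 fold change became -1.03 ± 0.34 (limma adjusted p = 0.742). That of Cnn1 became -1.04 ± 0.38 (limma adjusted p = 0.742). These 2 of the 9 members then passed the unadjusted threshold with at least 1.5-fold, both lower in sleep fragmented hearts, against 0.753% of all kept probes in that direction and 4.17% in either. Neither passed after adjustment. Acta2 had a log2 fold change of -0.04 without that array. Leaving out both arrays numbered 2, a setting chosen after seeing the data, gave -0.79 for Tagln and -0.91 for Cnn1 (limma adjusted p = 1.00 for each), with 3% of all kept probes past the same unadjusted rule. In that setting Acta2 stood at -0.48 (limma adjusted p = 1.00), below 0 like the other two.

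Myh11 encodes smooth muscle myosin heavy chain, the motor protein most restricted to this lineage. Its probe stands for transcript NM_001161775 and was well above background on 5 of 6 arrays, missing sleep fragmented array 1, so it was kept through the control group. The relative signal was 18.7, 18.6 and 14% on sleep fragmented arrays 1, 2 and 3, the first of these not above background. On control arrays 1, 2 and 3 it was 12.1, 15.5 and 23.9%. The controls held both the lowest and the highest value. Means were 17.1 ± 2.63% in sleep fragmented hearts and 17.2 ± 6.03% in control hearts (SD, n = 3 each), and the log2 fold change was 0.04 ± 0.27 (limma adjusted p = 0.987).

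Lmod1, a leiomodin that nucleates actin filaments in smooth muscle, was not well above background on any of the 6 arrays (0 of 6). Its signal of 4.05, 2.21 and 2.01% on sleep fragmented arrays, and of 2.01, 1.56 and 2.49% on control arrays, is therefore only a bound. No fold was taken.

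**Figure D2:**
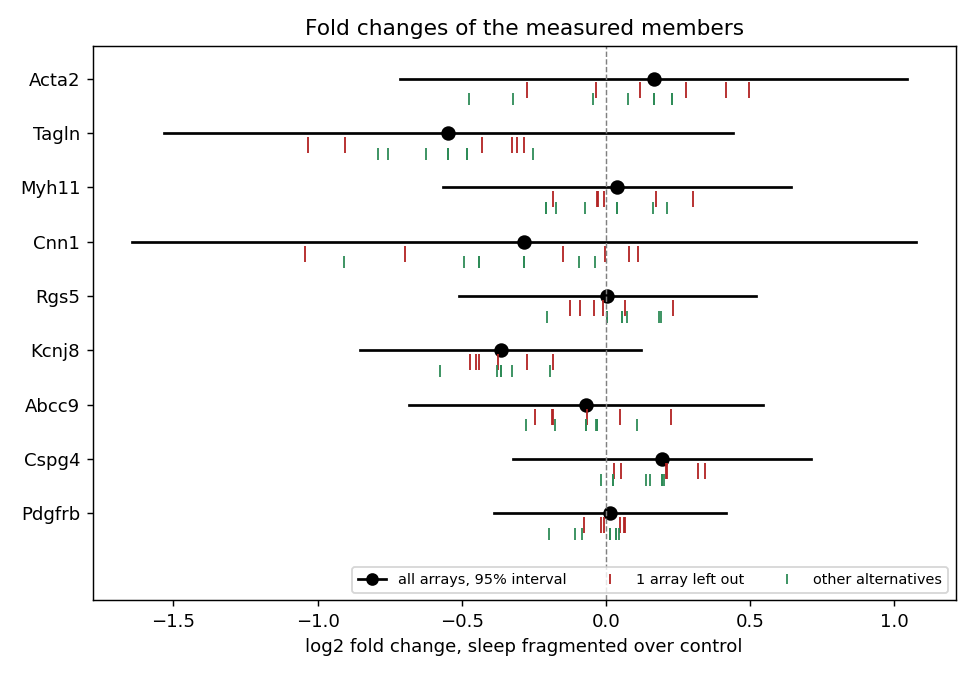
Log2 fold change, sleep fragmented over control, of the 9 measured members. Black points and lines are the limma estimate from all 6 arrays and its 95% interval, red ticks leave out 1 array each, green ticks are the other alternatives, and every black line crosses 0.

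Among the pericyte genes, Rgs5 encodes a regulator that shortens signalling by G protein-coupled receptors and is among the most used markers of pericytes. Its relative signal was 899, 576 and 946% on sleep fragmented arrays 1, 2 and 3. Control arrays 1, 2 and 3 gave 770, 736 and 856%. The lowest and the 2 highest values of the 6 were all from sleep fragmented hearts. Means were 807 ± 201% in sleep fragmented hearts and 787 ± 62% in control hearts (SD, n = 3 each). Rgs5 had a log2 fold change of 0.0049 ± 0.23 (limma adjusted p = 0.997), with a 95% interval of 0.703 to 1.43 in fold.

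Kcnj8 and Abcc9 encode the pore and the sulfonylurea receptor subunit of a potassium channel that opens when ATP falls, and which relaxes mural cells. Kcnj8 had 93.9, 65.8 and 97.9% on sleep fragmented arrays 1, 2 and 3. In control hearts 1, 2 and 3 it had 124, 108 and 97.0%. Sleep fragmented array 3 lay just above the lowest control, and the other sleep fragmented arrays lay below every control. Means were 85.9 ± 17.5% in sleep fragmented hearts and 109 ± 13.5% in control hearts (SD, n = 3 each). The log2 fold change of -0.37 ± 0.22 did not pass (limma adjusted p = 0.939), and its 95% interval was 0.554 to 1.09 in fold. Within positions 1, 2 and 3 the log2 differences were -0.40, -0.71 and 0.01. Kcnj8 and Tagln were the members whose log2 fold change was below 0 under all 17 alternatives run, with Kcnj8 between -0.58 and -0.18 and Tagln between -1.03 and -0.25. The alternatives of filter, block, prior and probe averaging leave a member's fold change as it is by construction. These could not turn a sign and add nothing to that count. The smallest adjusted p that Kcnj8 reached under any alternative was 0.161, with array weights. At an unadjusted limma p under 0.05 Kcnj8 was the 1 member of 9 with array weights, where 23.8% of all kept probes passed, and with median scaling, where 4.45% did.

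Abcc9, the partner subunit and the neighbour of Kcnj8 in the gene table, had 434, 247 and 475% on sleep fragmented arrays 1, 2 and 3. On control arrays 1, 2 and 3 it had 456, 330 and 390%. Sleep fragmented array 2 was the lowest and array 3 of the same group the highest. The log2 fold change was -0.07 ± 0.27 (limma adjusted p = 0.972), with means of 385 ± 121% in sleep fragmented hearts and 392 ± 63.2% in control hearts (SD, n = 3 each). Cardiomyocytes also express Abcc9, and this probe stands for 1 transcript of the gene, NM_021041.

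Cspg4, the NG2 proteoglycan on the pericyte surface, had 41.7, 28.8 and 33.4% on sleep fragmented arrays 1, 2 and 3. Control arrays 1, 2 and 3 gave 30.5, 23.8 and 36.9%. A sleep fragmented array was highest and a control array lowest, and the rest were mixed. Cspg4 had a log2 fold change of 0.19 ± 0.23 (limma adjusted p = 0.939), with means of 34.7 ± 6.55% in sleep fragmented hearts and 30.4 ± 6.55% in control hearts (SD, n = 3 each).

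Pdgfrb, the receptor through which endothelial platelet-derived growth factor recruits pericytes, had 377, 309 and 316% on sleep fragmented arrays 1, 2 and 3. In control hearts 1, 2 and 3 it had 353, 321 and 316%. It was the steadiest member, with a 1.22-fold range over the 6 arrays. Means were 334 ± 37.1% in sleep fragmented hearts and 330 ± 19.6% in control hearts (SD, n = 3 each). Pdgfrb had a log2 fold change of 0.01 ± 0.18 (limma adjusted p = 0.991), and the 95% interval of 0.764 to 1.33 in fold was the narrowest of the 9.

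The members did not vary over the arrays as 1 block. Likeness was measured as the root mean square difference of log2 signals, each gene centred on its own mean over the 6 arrays. The scaling of an array is shared by all its genes. Among 36 pairs, Rgs5 and Abcc9 were closest, at 0.15. The channel partners Kcnj8 and Abcc9 differed by 0.22. Tagln and Cnn1 differed by 0.35, whereas Acta2 differed from Tagln by 0.92 and from Cnn1 by 1.00. The departure of Acta2 was largest on control array 2, where centred Tagln exceeded centred Acta2 by 1.72 on the log2 scale, and on control array 1, where it was below it by 1.02 (-1.02). Smooth muscle alpha-actin and transgelin were thus high and low on different control arrays.

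**Figure D3:**
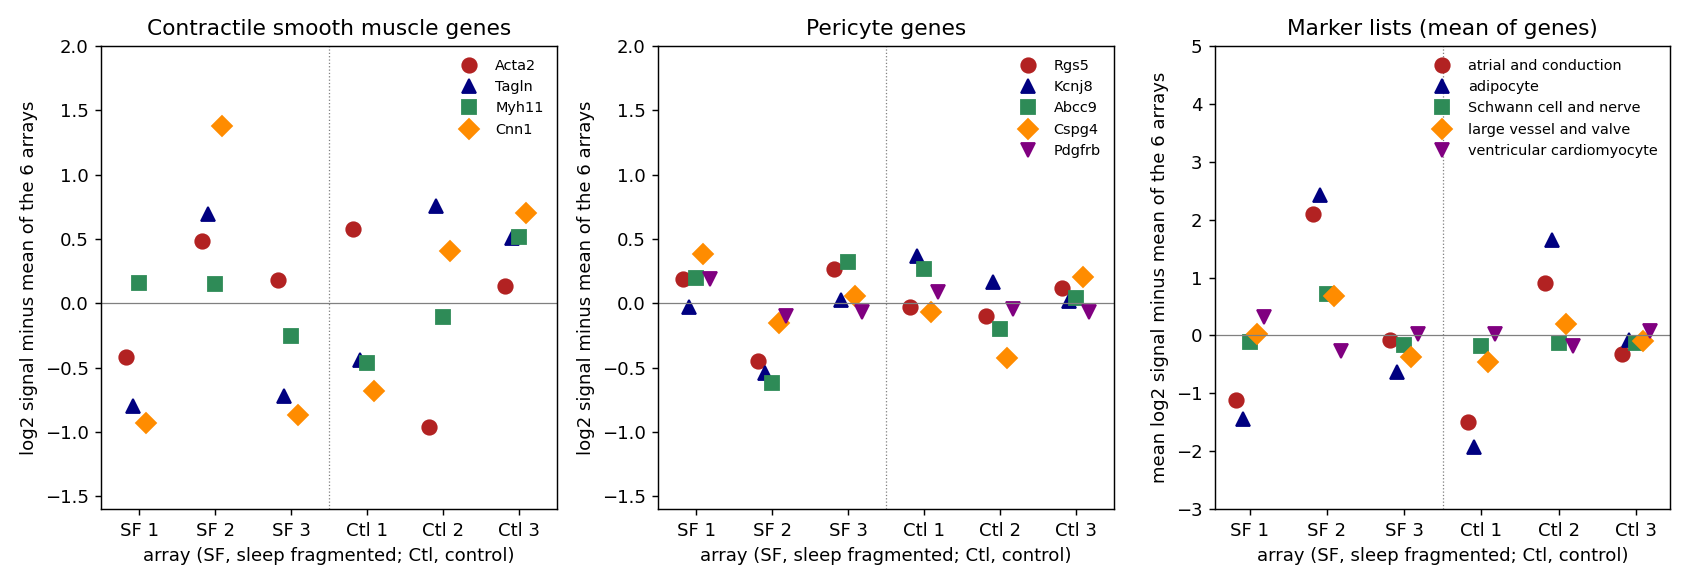
Log2 signal minus its mean over the 6 arrays for the contractile genes (left) and the pericyte genes (middle), and the same for mean log2 signals of 5 marker lists (right, wider axis), with sleep fragmented arrays left of control arrays and points set apart sideways to keep them visible. On sleep fragmented array 2, Cnn1 and the atrial and adipocyte lists are high while Rgs5, Kcnj8 and Abcc9 are low.

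The pericyte genes shared a low point. Sleep fragmented array 2 was the lowest of the 6 arrays for 4 of the 5 pericyte genes, Rgs5, Kcnj8, Abcc9 and Pdgfrb, and second lowest for Cspg4. Over all measured genes that array was lowest for 17.1%. It was also lowest for 9 of 14 ventricular cardiomyocyte, 7 of 16 endothelial and 6 of 21 other pericyte and mural genes. None of the 4 measured contractile genes was lowest on it (0 of 4), and Cnn1 was highest. The mean centred log2 signal of the pericyte genes was 0.18, -0.37 and 0.12 on sleep fragmented arrays and 0.12, -0.12 and 0.06 on control arrays. That of the contractile genes was -0.50, 0.68 and -0.42 on sleep fragmented arrays and -0.25, 0.02 and 0.47 on control arrays.

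The contractile genes varied widely between replicates. The within-group SD on the log2 scale was 1.06 for Cnn1, 0.74 for Tagln and 0.65 for Acta2, which placed them at percentiles 99.4, 98.2 and 97.1 of all measured genes. Myh11 stood at 0.39, percentile 78.7. Among the pericyte genes it ran between 0.13 for Pdgfrb (percentile 10.4) and 0.40 for Abcc9 (percentile 80.4). The median was 0.70 over the contractile genes and 0.29 over the pericyte genes, beside 0.26 over all measured genes, and the difference between the medians was not tested. The highest of the 6 arrays exceeded the lowest 4.95-fold for Cnn1, 2.93-fold for Tagln and 2.91-fold for Acta2. Such spread was not particular to these genes. Above percentile 90 also lay 8 of 8 atrial and conduction, 4 of 5 adipocyte and 5 of 8 Schwann cell and nerve genes. For endothelial genes it was 1 of 16 and for ventricular cardiomyocyte genes 0 of 14.

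**Figure D4:**
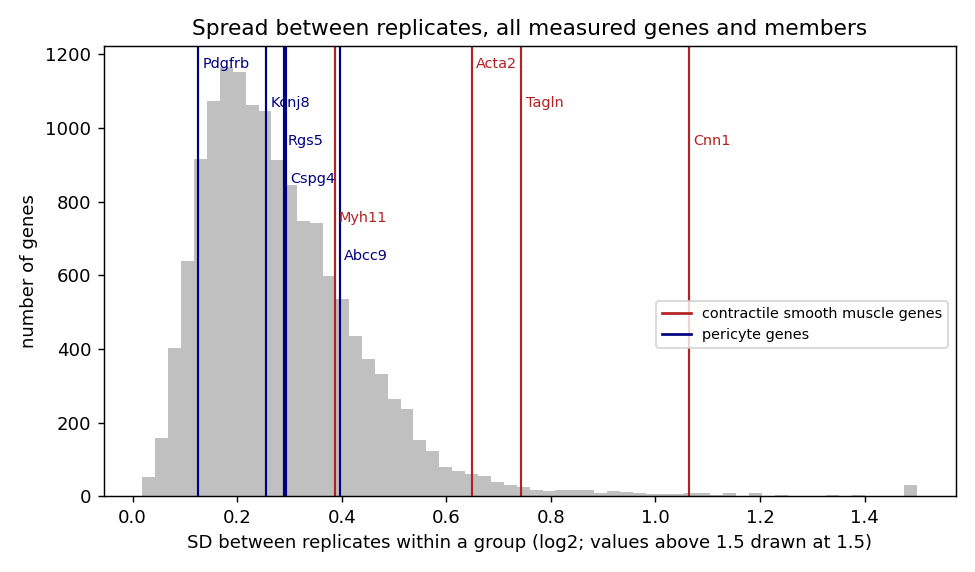
Histogram of the within-group SD of log2 signal over all 14555 measured genes, with the contractile genes as red lines and the pericyte genes as blue lines. Acta2, Tagln and Cnn1 lie in the right tail, and the pericyte genes lie in the bulk of the distribution.

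Markers of other tissue moved between the same arrays. The atrial and conduction list had 8 of 10 genes measured, and its summed relative signal ranged over 3523 to 33418% in sleep fragmented hearts and 1751 to 22686% in control hearts, highest on array 2 of each group. Of its defining genes Sln was not above background on sleep fragmented array 1 and control array 1, and Hcn4 on any array. The adipocyte list had 5 of 9 genes measured. Its summed signal was 8545 to 11009% in sleep fragmented hearts and 8805 to 9464% in control hearts, a sum in which single genes moved far more than the total. Cfd (adipsin) had 37.7, 1974 and 94.7% on sleep fragmented arrays 1, 2 and 3 and 22.2, 937 and 142% on control arrays 1, 2 and 3, so it too was highest on array 2 of each group. Plin1, Cidec and Ucp1 were not above background on array 1 of either group, and Lep on any array. The large vessel and valve list had 8 of 10 measured, with sums of 1107 to 1982% in sleep fragmented hearts and 1091 to 1494% in control hearts, again highest on array 2 of each group. By single genes, 7 of 8 atrial, 4 of 5 adipocyte and 5 of 8 large vessel genes were highest on sleep fragmented array 2, and 1 of 5 adipocyte and 2 of 8 large vessel genes were lowest on it. The fibroblast list had 13 of 13 measured, with sums of 15929 to 25161% in sleep fragmented hearts and 17150 to 18812% in control hearts, and 10 of 13 genes were highest on sleep fragmented array 2. The macrophage and leukocyte list had 10 of 11 measured, with sums of 1422 to 2509% in sleep fragmented hearts and 1482 to 2149% in control hearts, also highest on array 2 of each group. By single genes, 4 of these 10 were highest on sleep fragmented array 2 and 0 lowest. Over all measured genes that array was highest for 14.2%. Nerve markers had 8 of 10 measured, with sums of 347 to 729% in sleep fragmented hearts and 376 to 386% in control hearts. The ventricular cardiomyocyte sums were 101397 to 171525% in sleep fragmented hearts and 104325 to 125548% in control hearts, and 9 of 14 genes were lowest on sleep fragmented array 2. Of the members, Tagln was highest on the arrays numbered 2, Cnn1 was highest on sleep fragmented array 2 and above its mean of the 6 arrays on control array 2, and Acta2 was second on sleep fragmented array 2 and lowest on control array 2. The part of these tissues in the spread of the members was not tested.

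Other genes of the same system were counted over whole lists. Of 24 other smooth muscle contractile and cytoskeletal genes 21 were measured, 8 with a log2 fold change below 0 and 13 above, and the median was 0.08. None of these 21 passed adjustment (limma, 0 called), as in every list below, and 0 reached an unadjusted p under 0.05. The smallest p belonged to Aoc3, the vascular adhesion protein, whose log2 fold change was 0.53 ± 0.26. For spread between replicates, 2 of these 21 genes lay above percentile 90 of all genes, about the share that this percentile leaves above it. The genes were Myl9 and Itga8, picked out after their values were seen. Myl9, the regulatory light chain of smooth muscle myosin, had 282, 2008 and 370% on sleep fragmented arrays 1, 2 and 3. On control arrays 1, 2 and 3 it had 336, 691 and 479%. Like Cnn1 it was highest on sleep fragmented array 2, here 7.13-fold above its lowest array.

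The regulators of this programme were measured for 17 of 20 genes, 6 below 0 and 11 above, with a median of 0.12 and 0 at an unadjusted p under 0.05. The groups did not overlap for 2 of the 17, both lower in sleep fragmented hearts, against 7.28% of all kept probes in either direction. Srf, the transcription factor that binds the CArG box, had 195, 197 and 216% on sleep fragmented arrays, against 329, 193 and 290% on control arrays. Its control array 2 lay below every sleep fragmented array, and the log2 fold change was -0.38 ± 0.23 (limma adjusted p = 0.939). The other kept probe of Srf had 0.40, the opposite sign, so the probes of this gene disagreed.

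Of 22 other pericyte and mural genes 21 were measured, 10 below 0 and 11 above, with a median of 0.0050 and 0 at an unadjusted p under 0.05. Ednra, the endothelin receptor of mural cells, had 434, 682 and 918% on sleep fragmented arrays, against 871, 835 and 898% on control arrays, and a log2 fold change of -0.42 ± 0.27. The sleep fragmented arrays held both the highest and the lowest value. Pdzd2 had a log2 fold change of 0.47 ± 0.24 and Anpep, a surface peptidase of pericytes, one of 0.45 ± 0.30. Sleep fragmented array 2 was lowest for 6 of these 21 genes and highest for 5.

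The list of platelet-derived growth factor and recruitment signals had 19 of 19 genes measured, 5 below 0 and 14 above, with a median of 0.04. At an unadjusted limma p under 0.05 there were 2 of 19, both below 1.5-fold, against 2.91% of all kept probes at that p. Cxcr4, a chemokine receptor, had 27.6, 23.9 and 20.0% on sleep fragmented arrays and 18.0, 14.3 and 17.5% on control arrays. Notch1, the receptor that carries signals between neighbouring vascular cells, had 8585, 6021 and 6001% on sleep fragmented arrays and 4545, 5405 and 4066% on control arrays. The groups did not overlap for 3 of the 19 genes, Cxcr4 and Notch1 among them, against 7.28% of all kept probes. Log2 fold changes were 0.51 ± 0.20 for Cxcr4 and 0.54 ± 0.22 for Notch1 (limma adjusted p = 0.939 for each). The other kept probe of Notch1 had 0.31.

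Channels of vascular tone were measured for 11 of 17 genes, 3 below 0 and 8 above, with a median of 0.13 and 0 at an unadjusted p under 0.05. Receptors and effectors of vascular tone were measured for 23 of 30, 11 below 0 and 12 above, with a median of 0.03 and again 0 at that threshold. Pde3a, a phosphodiesterase that breaks down cyclic AMP, had a log2 fold change of -0.43 ± 0.24 by its brightest probe and of 0.19, the opposite sign, by the other kept probe. Edn1, the endothelial constrictor peptide, had 0.31 ± 0.18. The relatives of Rgs5 were measured for 11 of 15 genes, 4 below 0 and 7 above, with a median of 0.08. At an unadjusted p under 0.05 there were 2 of 11, against 2.91% of all kept probes. These were Rgs6 at 0.44 ± 0.17 and Rgs7 at 0.47 ± 0.20, neither past adjustment (limma adjusted p = 0.939 for each). Rgs7 was not above background on sleep fragmented array 1. Rgs11 went the other way, at -0.61 ± 0.32. The groups did not overlap for Rgs6, Rgs7 and Rgs11, as for 7.28% of all kept probes.

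The genes whose course over the 6 arrays lay nearest to the mean contractile profile were Fhl1, Tgfb2, Xkr8, Hs3st1 and Fgl2, at root mean square differences between 0.14 and 0.21. Tagln, the closest contractile member, stood at 0.35, and 549 of 14522 genes (3.78%) were at least as close. For the pericyte profile the nearest included Eral1, Tmem143, Ivns1abp and Slc2a4, at 0.03 to 0.04. Rgs5, the closest pericyte member, stood at 0.10, and 182 genes (1.25%) were at least as close. Likeness over 6 arrays is a description and shares each array's scaling.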

How the data were processed

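The members and gene lists were chosen with earlier results of these data known. Scanner output was deposited as 1 file per array. Per the file headers it comes from array design 026655 and Agilent Feature Extraction 11.0.1.1, with intensity on a linear scale, whereas version 10.5.1.1 stands in the submitters' processing notes. The deposited spot flags (well above background, saturated, outlier) are other values, 0 or 1. The authors also deposited a table of log2 values, with a column median of 5.54 each, made by steps not given in the sources used here; it served as an alternative.

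The processed signal was put on a log2 scale and each array's 75th percentile subtracted. Controls and outlier spots (180 to 240 per array) were left out and spots of a probe averaged; 0 spots were saturated. Of 39429 probes, 25228 were kept, and 27234 (69.1%) were named by RefSeq accession through a GRCm38.p6 gene table. Probe positions were not used. Groups, taken from the end of each title, were compared with limma 3.58.1 in R 4.3.3 (lmFit, eBayes, two-sided, prior degrees of freedom 5.02) with Benjamini-Hochberg adjustment over kept probes, and the fit was tested on simulated data. The brightest kept probe stood for a gene, and each member had 1. All members were named; from other lists, up to 3 genes with the smallest p were eligible. For likeness, the 5 nearest named genes were taken, clone names left out, and 1 of these genes is not reported here. The number of arrays limits the precision.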

Additional observations from a re-analysis of the deposited data

How the results depend on the processing

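With 3 arrays per group no fold change of a member passed adjustment, and leaving out 1 array could turn the sign of 6 of the 9 members, all but Tagln, Kcnj8 and Cspg4. Under no alternative did a member pass either. Over all kept probes the adjusted count of 0 became 3 with normexp, 53 with array weights, 4 when the replicate block was fitted and 5 without both arrays numbered 2, and stayed between 0 and 0 over the arrays left out in turn. Same-numbered arrays, which share a barcode, deviated together with r of 0.06, 0.55 and 0.21. These values cannot decide whether such arrays are pairs. The main fit left the shared barcode out. The block by barcode position is the same fit as the replicate block, and averaging the kept probes of a gene changes no member, since each has 1. Members past unadjusted p and 1.5-fold numbered 0 to 2 over the arrays left out, and 2 without both arrays numbered 2. The median over the members was -0.20 with median scaling, which shifted all kept probes to a median of -0.13, and -0.15 to 0.050 over the arrays left out. The contractile median was -0.32 with quantile normalization and with the authors' table, -0.33 with median scaling, 0.018 with normexp and -0.63 without both arrays numbered 2; the pericyte median was -0.20 with median scaling and -0.084 with normexp. Of the alternative values of single members, 30 changed sign and 122 did not. The 122 include all values from the alternatives of filter, block, prior and probe averaging, which could not change a sign. They therefore overstate how steady the signs were. Leaving out each array in turn gave Abcc9 -0.25 to 0.22, Acta2 -0.27 to 0.50, Cnn1 -1.04 to 0.11, Myh11 -0.18 to 0.30, Pdgfrb -0.077 to 0.065 and Rgs5 -0.13 to 0.23. Median scaling gave Acta2 -0.044, Cspg4 -0.016, Myh11 -0.17, Pdgfrb -0.20 and Rgs5 -0.20. Myh11 was -0.21 with quantile normalization and with the authors' table. Pdgfrb was -0.084 with normexp and -0.11 with array weights, and Acta2 -0.32 with array weights. Without both arrays numbered 2, Abcc9 was 0.11, Acta2 -0.48 and Myh11 -0.071. The cause was not tested. The filter on all 6 arrays removed Myh11, so it has no value there.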

Other observations

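Lists of other cells in the ventricle were counted beside the mural genes. The 6 measured erythroid genes of 7 all had a log2 fold change above 0, with a median of 1.18, where 37.3% of all kept probes were below 0. Of these genes 4 reached an unadjusted limma p under 0.05 with at least 1.5-fold (adjusted count 0), against 1.92% of all kept probes. The erythroid sum was 27034 to 62394% in sleep fragmented hearts and 21139 to 21919% in control hearts. Of the 16 endothelial genes 7 were below 0 and 9 above, with a median of 0.0068, and 7 of 16 were lowest on sleep fragmented array 2. Pecam1, the endothelial adhesion molecule, had a log2 fold change of -0.34 ± 0.21. Of the 13 fibroblast genes 11 were above 0, with Col1a1 at 0.61 ± 0.30 and Col1a2 at 0.57 ± 0.28, both collagen chains, and 0 reached an unadjusted p under 0.05. Of the 10 measured macrophage and leukocyte genes 4 were below 0 and 6 above.

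In the list of other pericyte and mural genes, 3 of the 21 measured (14.3%) lay above percentile 90 of all genes for spread between replicates. These were Angpt1, Angpt2 and Postn, picked out after their values were seen. All 3 were among the 5 of these 21 genes that were highest on sleep fragmented array 2, while 6 of the 21 were lowest on it. Angpt1, the mural ligand of the endothelial Tie receptor, had 251, 764 and 306% on sleep fragmented arrays 1, 2 and 3. On control arrays 1, 2 and 3 it had 540, 427 and 195%. The groups overlapped, and the log2 fold change was 0.13.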
